A study of Mus musculus with 4 samples.

Results

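Neutrophil-lineage cells were found among single-cell RNA profiles of mouse limb bone marrow from which blood cells had been sorted away. Cell barcodes were kept when they held 1000 or more UMIs from 500 or more genes, with mitochondrial genes giving no more than 10% of the UMIs. The cells were chosen by the levels of 8 genes: S100a8 and S100a9 together had to reach 20000 CPM, the UMIs of a gene scaled to a total of 1000000 per cell. At least 2 of the 4 genes Retnlg, Ngp, Camp and Ltf had to be detected, with no UMI of the endothelial gene Cdh5 and fewer than 5 UMIs of the bone-cell gene Ibsp. The rule kept 1007 of 16658 barcodes. Levels of these 8 genes are therefore given below as descriptions, with no test of their own. Those with enough counts stayed in the fit over all genes.

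The mutant mice were Prx1-cre;Mettl3-fl/fl, and the other group is labelled control with no further genotype. All mice were C57BL/6 at postnatal day 12. The recombinase of Prx1-cre is active in limb mesenchyme, a lineage that neutrophils do not belong to, and Mettl3 is the methyltransferase that places N6-methyladenosine on messenger RNA. Live cells negative for CD45 and Ter119 had been sorted from 3 mice of each genotype, and the series holds 4 droplet 3′ libraries, 2 per genotype. Mutant 2 is labelled only as mutant. The sources used here do not say which mice went into which library, and the spread that p-values measure is that between libraries, which may be technical. Mutant 1 and control 1 were processed with the same Cell Ranger version, and mutant 2 and control 2 with another, per the submitters' processing notes; these pairs are called batch 1 and batch 2.

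Neutrophils mature in the marrow in steps that are read from their granule genes. Promyelocytes make the primary granule proteases and myeloperoxidase, myelocytes and metamyelocytes fill secondary granules with lactoferrin, cathelicidin and Ngp, and band and segmented cells then express Retnlg, stefin A (Stfa) genes, matrix metalloproteinases and chemokine receptors. Division ends as secondary granules fill. Calprotectin, the S100a8 and S100a9 dimer, is abundant through most of these steps.

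Control 1 stood apart from the other libraries in its neutrophil-lineage cells. Median depth was 4454 UMIs in mutant 1 and 6120 in mutant 2, against 19150 in the 23 cells of control 1 and 8134 in control 2. Retnlg was close to absent in them and the primary granule genes Elane, Mpo and Prtn3 were high, as described below. No neutrophil-lineage barcode was shared between libraries, and 2 barcodes of mutant 2 also occurred as kept barcodes of control 1. Mettl3 had 2 UMIs in the cells of mutant 1 and 32 in mutant 2, against 0 in control 1 and 2 in control 2, too few for a comparison. Which exons were floxed is not stated, and a 3′ count then does not check the deletion.

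The data were compared first for how many such cells each library held. Mutant 1 held 185 neutrophil-lineage cells of 2628 kept barcodes, or 7.04% (exact 95% interval 6.09 to 8.09). Mutant 2 held 768 of 4587, or 16.7% (15.7 to 17.9). Control 1 held 23 of 5808, or 0.396% (0.251 to 0.594), and control 2 held 31 of 3635, or 0.853% (0.580 to 1.21). Both mutant libraries lay above both controls, with a difference of means of 11.3 percentage points. The difference was 6.64 points in batch 1 and 15.9 points in batch 2. The exact two-sided permutation test over libraries gave p = 0.3333, the smallest value this design allows. The intervals cover counting error only, and the CD45 sort and the depth of the cells can also set these shares. The file of mutant 1 holds only barcodes called as cells, while the others hold all barcodes.

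**Figure D1:**
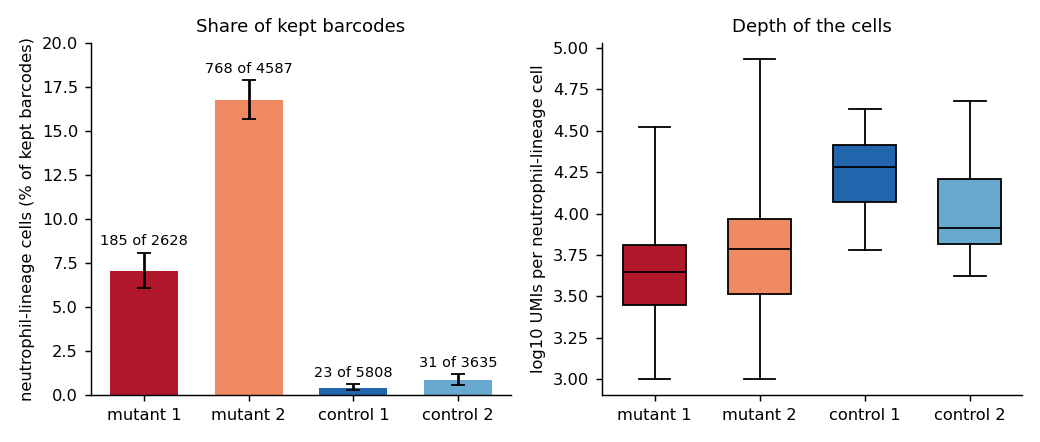
Left, bars give neutrophil-lineage cells as a percentage of kept barcodes in each library, with exact 95% intervals and the counts above them. Right, boxes show log10 UMIs per neutrophil-lineage cell (box, quartiles; line, median; whiskers, lowest and highest cell). The shares were 7.04% and 16.7% in the mutant libraries and 0.396% and 0.853% in the controls, and the mutant cells were the shallower ones, with medians of 4454 and 6120 UMIs against 19150 and 8134 in the controls.

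The lowest cell had 1002 UMIs in mutant 1 and 1003 in mutant 2, against 5984 in control 1 and 4204 in control 2. With all cells thinned to 1000 UMIs, the median number of genes was 300 in mutant 1 and 349 in mutant 2, against 391 in control 1 and 396 in control 2. The mutant cells held fewer genes at equal depth. With barcodes of at least 4000 UMIs only, the shares were 4.63% and 15.4% in mutants 1 and 2, against 0.488% and 0.936% in controls 1 and 2.

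The S100a8 and S100a9 threshold itself was far from most cells. The median cell reached 292200 CPM for both genes together in mutant 1 and 278500 in mutant 2, against 246400 in control 1 and 263900 in control 2. Just inside the threshold, between 20000 and 40000 CPM, lay 2 cells of mutant 1 and 17 of mutant 2 and none of either control. Just outside it, between 10000 and 20000 CPM, lay 13 and 59 kept barcodes of mutants 1 and 2 and none of either control. Among barcodes past the threshold, 20 in mutant 1 and 85 in mutant 2 were left out for 5 or more Ibsp UMIs, and 87 in mutant 2 for a Cdh5 UMI, against none in either control.

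The label of the cells was borne out by genes the rule did not use. Lcn2, the siderophore-binding lipocalin of secondary granules, reached 7672 CPM in mutant 1 and 10080 in mutant 2, against 8770 in control 1 and 12630 in control 2. Ly6g, the surface antigen used to identify mouse neutrophils, had 244 and 209 CPM in the mutants and 64.3 and 395 CPM in the controls. Transcript of Ptprc, which encodes CD45, was also present, at 579 and 587 CPM in mutants 1 and 2 and at 129 and 648 CPM in controls 1 and 2. After thinning to 1000 UMIs a Ptprc UMI remained in 47.6% of the cells of mutant 1, 48.7% of mutant 2, 17.4% of control 1 and 61.3% of control 2. In barcodes with at least 5 Ibsp UMIs, which should lack the gene, the thinned shares were 0.213% and 1.12% in the mutants and 0% in both controls, at median depths of 20500, 17880, 11980 and 19950 UMIs. The unthinned shares were 87.6% in both mutants, 78.3% in control 1 and all cells in control 2. Transcript of the gene whose protein the sort selected against was thus measured in most of these cells.

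Markers of eosinophils, megakaryocytes and vessels were low, and those of other blood cells varied. The list of 10 eosinophil, basophil and mast cell genes summed to 0 CPM in mutant 1 and 1.73 in mutant 2, against 2.14 in control 1 and 0 in control 2. The megakaryocyte list summed to 0 and 3.11 CPM in the mutants and to 4.29 and 7.45 CPM in the controls. The endothelial list summed to 5.27 and 63.1 CPM in the mutants and to 10.7 and 12.4 CPM in the controls, with Cdh5 at 0 by the rule. The 13 monocyte and macrophage genes summed to 417 and 588 CPM in the mutants and to 579 and 626 CPM in the controls. Of the 13, 7 and 2 were at 0 in mutants 1 and 2, and 10 and 11 in controls 1 and 2. Fn1 of this list had 28.4 and 42.5 CPM in the mutants and no UMI in either control. It was called higher in the fit over all genes (edgeR adjusted p = 1.09e-05). The highest cell of mutant 2 reached 52700 CPM of the list. The 8 T and NK cell genes summed to 280 and 43.7 CPM in the mutants and to 137 and 29.8 CPM in the controls, and the 11 B-cell genes to 7.37 and 58.0 CPM in the mutants and to 94.3 and 9.93 CPM in the controls. Of the 8 T and NK cell genes, 5 were at 0 in each mutant and 6 in each control. Of the 11 B-cell genes, 7 and 2 were at 0 in mutants 1 and 2, and 7 and 10 in controls 1 and 2. The highest cell of mutant 2 reached 10570 CPM of the B-cell list. Bone-cell and erythroid transcripts were present at higher levels and are given below.

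Granule genes were described next, since they order the cells by maturity. Ngp (neutrophilic granule protein, chr9:110419747-110423012 of mm10, plus strand) had 16150 CPM in mutant 1 and 18960 in mutant 2, against 24770 in control 1 and 29190 in control 2. Camp, the cathelicidin antimicrobial peptide (chr9:109847379-109849617, minus strand), had 13880 and 19000 CPM in the mutants, against 38770 and 31080 CPM in the controls. Ltf, the iron-binding lactoferrin (chr9:111019271-111042767, plus strand), had 3599 and 4964 CPM in the mutants and 3659 and 6265 CPM in the controls. Levels of Ngp and Camp in both mutants lay below both controls, and those of Ltf overlapped. CPM are scaled to total UMIs only. The fit over all genes also scaled the libraries by TMM factors, 0.757 and 0.995 in the mutants and 1.11 and 1.20 in the controls. Its log2 fold changes, given here without a test, were -0.22 ± 0.65 (SE) for Ngp, -0.70 ± 0.66 for Camp and 0.22 ± 0.69 for Ltf.

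Retnlg, a resistin-like secreted protein of late neutrophils (chr16:48872621-48874496, plus strand), had 12220 CPM in mutant 1 and 8655 in mutant 2, against 96.5 in control 1 and 6868 in control 2. Only 45 Retnlg UMIs in 5 of 23 cells made up the level of control 1. Controls and mutants did not overlap, although control 2 was much nearer to the mutants than to control 1.

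Ngp, Camp and Ltf lie on the same chromosome and varied together over cells in 3 of 4 libraries, so their promoters are shown with that of Retnlg, which varied against Ngp in the same 3. In control 1 the rho of Ngp was 0.27 with Camp and 0.10 with Retnlg. The sequences are from RefSeq (GRCm38.p6), 5′ to 3′ on the strand of the gene, from 250 bases before to 50 bases after the RefSeq start, which differs from the start of the gene annotation given above. Capitals mark TTGCNNAA or its reverse TTNNGCAA, letters found in sites of C/EBP factors. Such letters occurred in 10.8% of 32851 promoters of this length. Ngp held 2 matches, Ltf and Retnlg 1 each and Camp 0. A match is a description of the letters, not a site.
Ngp (chr9:110419558-110419857, plus): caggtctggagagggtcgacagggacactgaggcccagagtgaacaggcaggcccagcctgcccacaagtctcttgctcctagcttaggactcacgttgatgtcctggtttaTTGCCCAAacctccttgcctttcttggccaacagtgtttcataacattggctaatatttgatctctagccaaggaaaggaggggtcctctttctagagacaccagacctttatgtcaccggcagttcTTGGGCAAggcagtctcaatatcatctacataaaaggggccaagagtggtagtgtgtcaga
Ltf (chr9:111019042-111019341, plus): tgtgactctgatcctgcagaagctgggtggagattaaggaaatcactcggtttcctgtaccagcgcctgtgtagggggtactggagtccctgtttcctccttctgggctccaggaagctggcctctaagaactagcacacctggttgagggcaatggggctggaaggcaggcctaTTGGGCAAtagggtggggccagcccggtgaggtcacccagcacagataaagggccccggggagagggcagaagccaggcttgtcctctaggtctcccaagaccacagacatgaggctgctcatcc
Camp (chr9:109849407-109849706, minus): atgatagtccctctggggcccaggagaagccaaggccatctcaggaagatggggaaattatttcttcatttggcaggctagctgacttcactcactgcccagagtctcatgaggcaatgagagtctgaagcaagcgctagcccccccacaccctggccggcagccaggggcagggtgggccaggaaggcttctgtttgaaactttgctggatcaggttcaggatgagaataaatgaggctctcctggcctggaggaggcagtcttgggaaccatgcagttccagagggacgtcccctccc
Retnlg (chr16:48872358-48872657, plus): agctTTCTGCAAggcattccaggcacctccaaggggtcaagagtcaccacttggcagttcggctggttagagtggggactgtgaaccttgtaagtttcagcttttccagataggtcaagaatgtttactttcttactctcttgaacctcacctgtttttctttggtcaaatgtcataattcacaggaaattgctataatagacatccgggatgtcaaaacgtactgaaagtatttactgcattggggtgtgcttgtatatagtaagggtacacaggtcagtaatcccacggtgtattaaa

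The stefin A genes, which encode inhibitors of cysteine proteases, lie in a cluster on chromosome 16. Stfa1 (chr16:36276951-36285373) had 59440 CPM in mutant 1 and 38490 in mutant 2, against 41990 in control 1 and 24750 in control 2, and the groups overlapped. Stfa2 (chr16:36403992-36408457) had 23450 and 16290 CPM in the mutants and 2967 and 8836 CPM in the controls. Stfa2 rose in the mutants (log2 fold change 2.33 ± 0.74, SE; edgeR adjusted p = 0.0406), but the edgeR adjusted p was 0.218 with mutant 1 left out and 0.191 with control 1 left out. Stfa1 did not pass (log2 0.97 ± 0.64; edgeR adjusted p = 0.473), nor did Stfa3 or Stfa2l1. Among other stefin genes of the cluster, 2 of 5 tested rose, Csta2 and Csta3, where 3.17% of all 5109 tested genes rose. Csta2 had 7773 and 4746 CPM in the mutants against 632 and 1524 CPM in the controls (log2 3.02 ± 0.78; edgeR adjusted p = 0.00731), and the edgeR adjusted p was 0.156 with mutant 1 left out and 0.0568 with control 1 left out. Here and below, fits that leave out a library also have no batch term. The transcripts of Stfa2 and Stfa2l1 were 95.7% identical over 373 aligned bases and other Stfa pairs 75.4 to 82.2%. The split of reads between such copies is therefore uncertain.

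**Figure D2:**
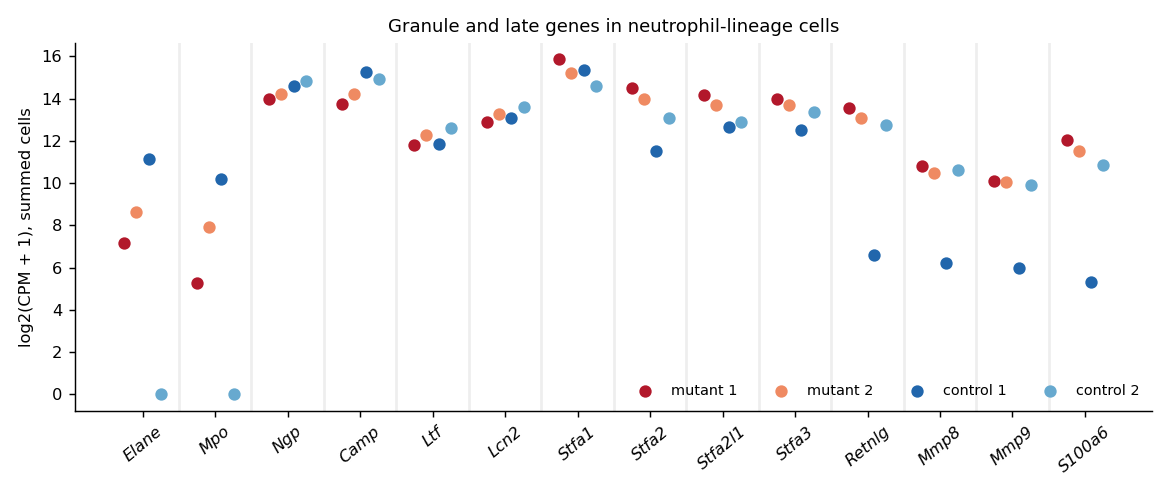
Points give log2(CPM + 1) of each gene in the summed neutrophil-lineage cells of each library, for primary granule genes (left), secondary granule genes (middle) and stefin and late genes (right). Control 1 is the highest library for Elane and Mpo and far below the others for Retnlg, Mmp8, Mmp9 and S100a6, while control 2 lies near the mutants for those late genes and at 0 for Elane and Mpo.

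Each cell was placed on a scale by its late share. This is the UMIs of Retnlg, Stfa1, Stfa2, Stfa2l1 and Stfa3 as a percentage of those UMIs plus the UMIs of Ngp, Camp and Ltf. It is a balance of transcripts and need not follow maturity, as control 1 shows below. Over all cells of a library the late share was 79.5% in mutant 1 and 67.7% in mutant 2, against 46.1% in control 1 and 46.9% in control 2. Both mutants lay above both controls, by 27.1 percentage points on average. Within batch 1 the mutant was 33.3 points higher and within batch 2 it was 20.9 points higher. With Retnlg alone as the late gene the shares were 26.7% and 16.8% in the mutants and 0.143% and 9.36% in the controls, a difference of 16.97 points. The score uses genes of the rule that chose the cells, so the difference is a description. The permutation test that was run on it is not read here.

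The median cell had a late share of 87.6% in mutant 1 and 76.7% in mutant 2, against 50.1% in control 1 and 53.1% in control 2. Cells with a late share over 75%, called late-dominant here, numbered 135 of 185 in mutant 1 and 419 of 768 in mutant 2, against 2 of 23 in control 1 and 11 of 31 in control 2. Cells below 25%, called granule-dominant, numbered 1 and 34 in the mutants and 2 and 3 in the controls. These are ranges of a continuous score, not cell types, and 29 and 133 cells of mutants 1 and 2 and 1 and 3 cells of controls 1 and 2 lay within 5 points of a boundary.

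**Figure D3:**
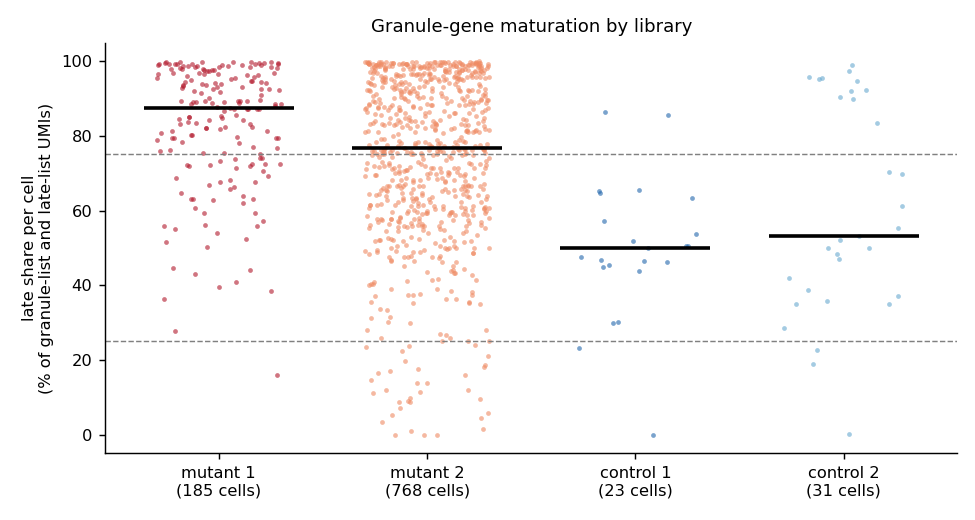
Each point is a neutrophil-lineage cell, placed by its late share in percent within its library; black lines are medians and dashed lines the boundaries at 25% and 75%. The medians were 87.6% and 76.7% in the mutants and 50.1% and 53.1% in the controls, and control 1 had 2 cells above 75%.

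Levels along the scale differed in the same order in most libraries. In mutant 2, Camp had 33890 CPM in granule-dominant cells, 28090 in the middle range and 5045 in late-dominant cells, while Retnlg had 704, 3297 and 16710 CPM in that order. In control 2, Camp had 59020, 31890 and 3330 CPM and Retnlg 204, 4239 and 24580 CPM over the same ranges. Cebpe, the transcription factor needed for secondary granules, had 481, 291 and 92.6 CPM in mutant 2 and 704, 608 and 271 CPM in control 2. Late-dominant cells were also the shallower ones, with median depths of 5191 UMIs in mutant 2 and 5475 in control 2, against 9112 and 17150 UMIs in granule-dominant cells. Levels of the genes that make the score follow from its definition. Cebpe and depth were not part of it.

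In control 1 Camp followed this order, with 51330, 41290 and 2070 CPM, but Retnlg and Cebpe did not, with 16.6, 122 and 0 CPM and with 598, 698 and 396 CPM. Its 2 late-dominant cells held no Retnlg UMI, and had 6825 CPM of Elane (neutrophil elastase) and 6143 CPM of Mpo (myeloperoxidase), with Stfa1 at 18430 CPM and Camp at 2070 CPM. A high late share in those cells came from Stfa1 with few granule transcripts, beside genes of primary granules. Over the whole library Elane had 142 CPM in mutant 1 and 394 in mutant 2, against 2234 in control 1 and 0 in control 2. Mpo had 37.9 and 245 CPM in the mutants and 1181 and 0 CPM in the controls. After thinning to 1000 UMIs an Elane UMI was found in 0.541% of the cells of mutant 1 and 0.911% of mutant 2, against 26.1% of control 1 and 0% of control 2. The unthinned shares were 0.541% and 1.69% in the mutants and 30.4% and 0% in the controls. Of the 8 primary granule genes tested, none passed, and for Elane, Mpo, Prtn3 and Ctsg the controls lay at opposite ends of the range, control 1 above and control 2 below both mutants.

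Over cells, Spearman's rho was computed within each library as a description. Ngp and Ltf had a rho of 0.87 over 185 cells of mutant 1 and 0.86 over 768 of mutant 2, against 0.66 over 23 of control 1 and 0.79 over 31 of control 2. Ngp and Retnlg had -0.65 and -0.49 in the mutants and 0.10 and -0.74 in the controls. Retnlg and the summed Stfa genes had only 0.05 and 0.28 in the mutants and 0.44 and 0.15 in the controls, so Retnlg and Stfa levels gave different orders of the cells. The late share and the UMIs of the cell had -0.36 and -0.25 in the mutants and -0.16 and -0.79 in the controls. Cells of a library share depth and free RNA.

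Among 2524 genes found in at least 10% of the cells of every library, those most like Ngp by mean rho were Ltf (0.79), Lcn2 (0.76), Camp (0.72), Chil3 (0.70, a chitinase-like protein), Anxa1 (0.61), Cybb (0.60, the NADPH oxidase heavy chain), Arhgdib (0.56) and Lyz2 (0.54, lysozyme). Those most like Retnlg were S100a6 (0.68), S100a11 (0.62), Mmp9 (0.58, gelatinase), Slpi (0.57, a protease inhibitor), Grina (0.57), Mmp8 (0.57, neutrophil collagenase), Msrb1 (0.56) and Srgn (0.55, the granule proteoglycan core). Srgn was also the gene with the lowest mean rho with Ngp (-0.63), with -0.62 and -0.54 in the mutants and -0.63 and -0.75 in the controls.

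Summed counts of the cells were then compared between genotypes across all genes. The files held 949586 UMIs in these cells for mutant 1 and 5795707 for mutant 2, against 466477 for control 1 and 402896 for control 2. At an edgeR adjusted p under 0.05, 241 of 5109 tested genes were called (4.72%), 162 higher in the mutants (3.17%) and 79 lower (1.55%). Genes that chose the cells were not taken out of these counts, and Retnlg and Ibsp are among the 162. The median log2 fold change of all tested genes was 0.05. The number called differed strongly between choices of cells and fit. Fits that leave out a library have no batch term, and with all libraries and no batch term the number called was 19. It was 37 without mutant 1, 184 without mutant 2, 61 without control 1 and 1528 without control 2. With at least 3 of the 4 rule genes detected, which left 165 cells of mutant 1 and 710 of mutant 2, against 20 of control 1 and 31 of control 2, edgeR called 0 genes, with 481 at an unadjusted p under 0.05. The prior degrees of freedom, which set how far the spread is shared between genes, were infinite in the first fit and 5.46 in that one. Fewer cells of a kind and less RNA per cell cannot be told apart in sums.

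Heat shock and immediate-early genes were among those with the smallest p, beside bone-cell genes given below. Hspa1a, which encodes the inducible chaperone HSP70, had 1251 CPM in mutant 1 and 2408 in mutant 2, against 12.9 in control 1 and 0 in control 2. Hspa1a and its near-identical copy Hspa1b ranked at the top of all tested genes (log2 8.56 ± 1.03, edgeR adjusted p = 4.89e-13, and log2 7.51 ± 0.97, edgeR adjusted p = 3.76e-11), and reads of the pair can be split between them. Hsph1, an HSP110 chaperone, had 104 and 193 CPM in the mutants and 0 and 4.96 CPM in the controls. Dnajb1, an HSP40 co-chaperone, had 160 and 252 CPM in the mutants and 36.4 and 29.8 CPM in the controls. For all of these genes both mutants lay above both controls.

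Of 9 heat shock genes tested, 5 rose (Hspa1a, Hspa1b, Hsph1, Dnajb1 and Hsp90aa1) and none fell, where 3.17% of all tested genes rose. The median log2 fold change of the 9 was 2.59 beside 0.05 over all genes. Hspa8, the constitutive HSC70, had 774 and 1252 CPM in the mutants and 622 and 340 CPM in the controls and did not pass, and the mitochondrial chaperones Hspd1 and Hspe1 had log2 values of -0.15 and 0.09. Hsp90aa1 had 1045 and 2041 CPM in the mutants against 322 and 318 CPM in the controls (log2 2.59 ± 0.73; edgeR adjusted p = 0.0173). The edgeR adjusted p of Hsp90aa1 was 0.0986 once mutant 1 was left out and 0.151 once mutant 2 was, and its call was lost, while the other 4 genes stayed called when any library was left out. With all libraries and no batch term Hsp90aa1 was not called either, while the other 4 were. All 5 were kept among cells of the middle range of the late share alone. With at least 4000 UMIs as well, 3 of 5 were kept (Hspa1a, Hspa1b and Hsph1). Without cells of over 1% globin UMIs, Hspa1a and Hsph1 alone of the 5 were called, with all 5 still higher and their median log2 fold change at 7.46, against 6.38 with those cells.

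The promoter of Hspa1a, the gene with the smallest p, is shown with the letters GAANNTTC, which form the core of heat shock elements, in capitals (RefSeq, GRCm38.p6). They occurred once, and in 7.86% of the 32851 promoters.
Hspa1a (chr17:34972107-34972406, minus): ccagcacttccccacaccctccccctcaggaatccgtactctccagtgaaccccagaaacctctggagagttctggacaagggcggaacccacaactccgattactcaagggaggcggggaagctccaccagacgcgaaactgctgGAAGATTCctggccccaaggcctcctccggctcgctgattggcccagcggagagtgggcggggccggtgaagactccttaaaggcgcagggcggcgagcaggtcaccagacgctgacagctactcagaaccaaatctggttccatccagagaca

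Hspa1a was unevenly spread over cells. A UMI was found in 74 of 185 cells of mutant 1 and 445 of 768 of mutant 2, against 4 of 23 in control 1 and 0 of 31 in control 2. The exact interval of the last share reaches 11.2% and covers cells with a UMI, not cells that express the gene. After thinning to 1000 UMIs the shares were 26.5% and 43.4% in the mutants and 0% in both controls. The highest 19 cells of mutant 1 held 72.4% of its Hspa1a UMIs, and the highest 77 of mutant 2 held 62.1%. The level did not follow the late share in the same way in both mutants. It was 1825 CPM in the middle range and 1039 in late-dominant cells of mutant 1. In mutant 2 it was 2309 and 2698 CPM in that order.

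Jun, a subunit of the AP-1 transcription factor, had 613 CPM in mutant 1 and 975 in mutant 2, against 17.1 in control 1 and 2.48 in control 2 (log2 6.79 ± 0.92; edgeR adjusted p = 3.71e-10). Of 16 transcription factor and immediate-early genes tested, 7 rose (Jun, Junb, Jund, Atf3, Egr1, Zfp36 and Per1) and none fell. Atf3 had no UMI in either control and could only be called higher. Among all tested genes 3.17% rose. The list's median was 1.79. Fos, the other AP-1 subunit, had 151 and 167 CPM in the mutants and 83.6 and 196 CPM in the controls, and the groups overlapped. Spi1 and Cebpe, regulators of the lineage, did not pass, and Cebpe had 141 and 224 CPM in the mutants against 656 and 568 CPM in the controls (log2 -1.38 ± 0.68; edgeR adjusted p = 0.272). Without mutant 1 only Jun and Egr1 were called of the 7, without mutant 2 only 5, without control 1 only 5, and without control 2 all 7. With no batch term only Jun was called. Hmox1, heme oxygenase 1, had 121 and 292 CPM in the mutants and 0 and 7.45 CPM in the controls (log2 6.33 ± 0.93; edgeR adjusted p = 1.48e-08).

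The same genes were read in other cells of the libraries, as values side by side. In barcodes with at least 5 Ibsp UMIs, Hspa1a had 55.4 CPM in mutant 1 and 95.1 in mutant 2, against 20.9 in control 1 and 18.7 in control 2. In barcodes with a Cdh5 UMI it had 28.1 and 94.4 CPM in the mutants and 15.9 and 13.6 CPM in the controls. Jun had 259 and 400 CPM in the mutants and 247 and 489 CPM in the controls in the Ibsp barcodes, where the groups overlapped. In barcodes of 10 to 100 UMIs, a sample of free RNA, Hspa1a had 356 CPM in mutant 2, against 74.2 in control 1 and 2.61 in control 2; the file of mutant 1 holds no such barcodes. In the cells themselves Hspa1a was at 2408 CPM in mutant 2, and whether its difference between genotypes exceeds that in the other cells was not tested.

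**Figure D4:**
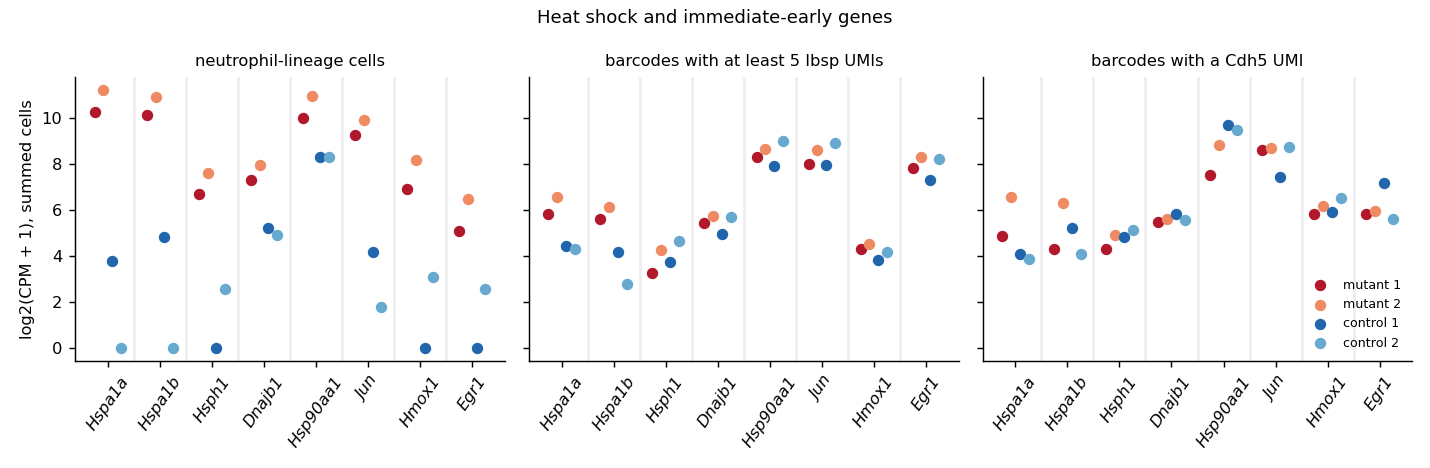
Points give log2(CPM + 1) of heat shock and immediate-early genes in the summed cells of each library, for neutrophil-lineage cells (left), kept barcodes with at least 5 Ibsp UMIs (middle) and kept barcodes with a Cdh5 UMI (right). In neutrophil-lineage cells both mutants lie above both controls for every gene drawn, as Hspa1a does at 1251 and 2408 CPM in the mutants against 12.9 and 0 in the controls; in the other cells Hspa1a stays under 100 CPM in every library.

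The 12 genes with the smallest p among those lower in the mutants were Ckap2l (a spindle protein), Pclaf (a partner of PCNA), Ube2c (an enzyme of the anaphase-promoting complex), Asf1b (a histone chaperone), Ccna2 (cyclin A2), Cenps and Cenph (centromere proteins), Wdr76, Pbk (a mitotic kinase), Dut (which clears dUTP), Aspm (a spindle pole protein) and Tipin (a replication fork protein). Pclaf had 22.1 CPM in mutant 1 and 82.8 in mutant 2, against 484 in control 1 and 380 in control 2 (log2 -2.88 ± 0.71; edgeR adjusted p = 0.0051). The log2 fold changes of the 12 ran from -2.998 for Ckap2l to -2.50 for Tipin, with edgeR adjusted p from 0.00369 to 0.0101. Both mutants lay below both controls for each of them. The calls depended on the libraries and the fit: 0 of 12 were called without mutant 1, 12 without mutant 2, 1 without control 1 and 10 without control 2, and 0 with no batch term, 0 with 3 of 4 rule genes detected and 4 with DESeq2. These 12 were chosen by p and tested for no shared function.

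Of 22 proliferation genes tested, 16 fell and none rose, where 1.55% of all tested genes fell. The median log2 fold change of the list was -2.30. Mki67, the marker of cycling cells, had 29.5 and 149 CPM in the mutants and 360 and 452 CPM in the controls (log2 -2.17 ± 0.69; edgeR adjusted p = 0.0411). Top2a, topoisomerase II alpha, had 26.3 and 117 CPM in the mutants and 386 and 420 CPM in the controls (log2 -2.42 ± 0.69; edgeR adjusted p = 0.0189). The 16 calls became 0 without mutant 1, 12 without mutant 2, 1 (Pclaf) without control 1 and 14 without control 2, with all 16 still lower in each. With no batch term none of the 16 was called. Among cells of the middle range 9 of the 16 were called, and none when those cells also had at least 4000 UMIs, where all 16 were again lower.

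Proliferation genes differed in how they followed the late share. Top2a had 755, 0 and 0 CPM over the granule-dominant, middle and late-dominant cells of mutant 1 and 456 and 129 CPM in the first and middle ranges of mutant 2, with its lowest level in late-dominant cells. In control 1 it had 349, 391 and 396 CPM over them, and in control 2 it had 982, 370 and 159 CPM. Top2a was thus highest in granule-dominant cells of every library but control 1. Those cells number only 1 in mutant 1, 3 in control 2 and 2 in control 1, against 34 in mutant 2. The late-dominant cells of control 1 also number 2. Mki67 had 426 CPM in granule-dominant cells of mutant 2, 164 in its middle range and 75.1 in late-dominant cells. In control 2 it had 574, 388 and 637 CPM in that order, and in the middle range of mutant 1 and control 1 it had 3.34 and 402 CPM. After thinning to 1000 UMIs, at least 2 UMIs of the list were found in 47.6% of cells in mutant 1 and 53.6% in mutant 2, against 95.7% in control 1 and 61.3% in control 2. The difference of means was -27.9 points (exact two-sided permutation p = 0.3333). It was -48.1 points within batch 1, -7.64 within batch 2 and -10.7 without control 1. The intervals of mutant 2 (50.05 to 57.2) and control 2 (42.2 to 78.2) overlapped. Without thinning the shares were 90.8% and 93.9% in the mutants, and every cell of both controls had them. Hmgb2, a list member that did not pass, held 1579 of 1836 list UMIs in mutant 1 and 12781 of 19746 in mutant 2. In the controls it held 1886 of 3998 and 1447 of 2911. After thinning, a Mki67 UMI was found in 0% of the cells of mutant 1 and 5.60% of mutant 2. The shares are therefore not shares of cycling cells.

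Some genes of late and activated neutrophils also rose. Of 26 late neutrophil genes tested, 10 rose and none fell, where 3.17% of all tested genes rose. Of the 10, Wfdc17 and Cxcl2 had no UMI in either control. They passed the filter on low counts through the mutants alone and could only be called higher. The median log2 fold change of the list was 2.10. Il1b, the cytokine interleukin 1 beta, had 91.6 CPM in mutant 1 and 95.6 in mutant 2, against 6.43 in control 1 and 14.9 in control 2 (log2 3.57 ± 0.74; edgeR adjusted p = 0.000279), and it was called when any library was left out. Its levels in controls 1 and 2 rest on 3 and 6 UMIs. Without cells of over 1% globin UMIs only Wfdc17 of the 10 was called, and with 3 of 4 rule genes detected none was. Il1b lay mainly in late-dominant cells, at 141 and 203 CPM in those of mutants 1 and 2 and at 0 and 95.6 CPM in those of controls 1 and 2. Clec4d, a C-type lectin receptor, had 114 and 93.0 CPM in the mutants and 0 and 19.9 CPM in the controls (log2 3.99 ± 0.78; edgeR adjusted p = 7.22e-05). Wfdc17, a small secreted protein with a whey acidic protein domain, had 43.2 and 94.0 CPM in the mutants and no UMI in either control, at least 25.2-fold higher against a floor of 3 counts over both controls.

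The other members called were Ccl6, Clec4e, Trem1, Ifitm1, Cxcl2, Btg1 and Pla2g7. Of all 10 calls, 4 were kept without mutant 1, 6 of the 9 still tested without mutant 2, 3 (Il1b, Clec4d and Wfdc17) without control 1 and 10 without control 2. With no batch term 2 were called (Il1b and Wfdc17), and among cells of the middle range 3 were still tested and 1 (Trem1) was called. Mmp8 and Mmp9, which also belong to late cells, had 1794 and 1453 CPM and 1105 and 1061 CPM in mutants 1 and 2. In the controls Mmp8 had 72.9 and 1564 CPM and Mmp9 62.2 and 953 CPM, and neither passed. S100a6, the gene most like Retnlg over cells, had 4223 and 2980 CPM in the mutants and 38.6 and 1879 CPM in the controls (log2 3.998 ± 1.03; edgeR adjusted p = 0.00786), but the edgeR adjusted p was 0.518 with mutant 1 left out and 0.184 with control 1 left out. For these genes control 1 was far below control 2.

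Lists of other neutrophil functions are given beside the 4.72% of all tested genes that were called, at which lists of this size hold few or no calls. Of 6 NADPH oxidase genes, 24 receptors and adhesion molecules, 9 MHC class I genes, 12 glycolysis genes and 14 secondary granule genes outside the rule, none passed, with median log2 fold changes of 0.14, 0.85, 0.81, 0.06 and 0.35. Cybb had 593 and 998 CPM in the mutants and 772 and 1673 CPM in the controls, and Cxcr2, the receptor for neutrophil chemokines, had 140 and 146 CPM in the mutants and 60.0 and 226 CPM in the controls. The 10 tested genes that write, read or erase N6-methyladenosine had a median of -0.18 and none passed. Of 7 interferon-stimulated genes tested, 1 rose (Slfn4). Of 10 inflammatory genes tested, 4 rose (Il1b, Cxcl2, Nfkbiz and Osm). Il1b and Cxcl2 are also counted among the late neutrophil genes, and Cxcl2 had no UMI in either control.

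**Figure D5:**
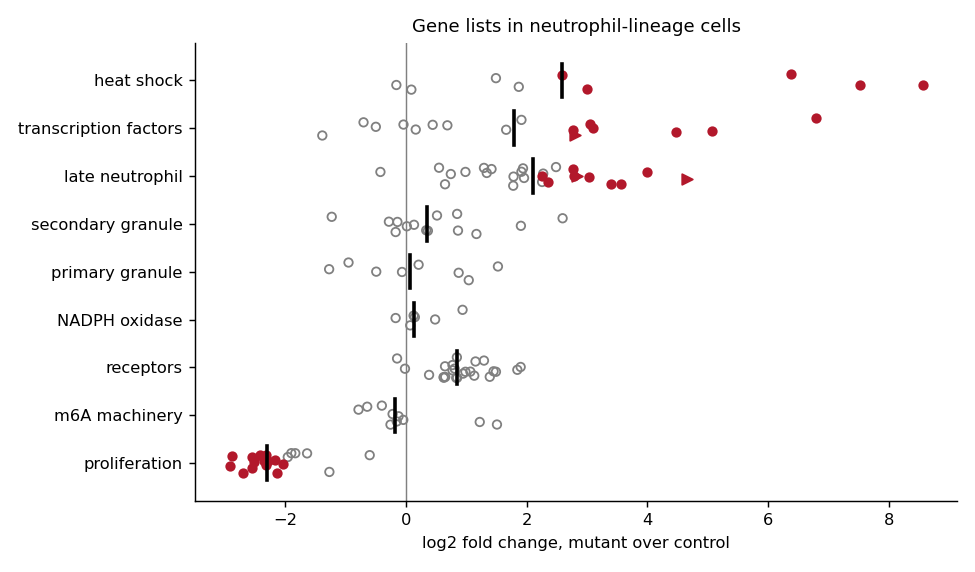
Each point is a tested gene, placed by its log2 fold change in summed neutrophil-lineage cells, mutant over control; filled red points passed an edgeR adjusted p of 0.05, open points did not, and triangles are lower bounds of genes with no UMI in either control. Black lines are medians of the lists drawn, which run from 2.59 for heat shock genes to -2.30 for proliferation genes. Genes that chose the cells are left out.

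Transcripts of bone-forming cells rose as well. Of 7 mesenchyme genes tested outside the rule, 6 rose, where 3.17% of all tested genes rose. Spp1 (osteopontin) led them, with 429 and 661 CPM in the mutants and 17.1 and 14.9 CPM in the controls (log2 5.44 ± 0.83, edgeR adjusted p = 6.73e-08). Of these 6, 4 were called without mutant 1, 6 without mutant 2, 5 without control 1, 6 without control 2 and 3 with no batch term. The remaining gene, Cxcl12, a chemokine of stromal cells, had 1.05 and 51.9 CPM in the mutants and 497 and 0 CPM in the controls (log2 -1.72 ± 1.35; edgeR adjusted p = 0.566), and made up most of the list's sum in control 1. Col1a1, the type I collagen chain, had 513 and 581 CPM in the mutants and 19.3 and 19.9 CPM in the controls, and Tnc, tenascin C, had 93.7 and 123 CPM in the mutants and 8.57 and 0 CPM in the controls. In barcodes with at least 5 Ibsp UMIs Col1a1 had 32470 and 42100 CPM in the mutants and 68600 and 69350 CPM in the controls. In barcodes of 10 to 100 UMIs Col1a1 had 14660 CPM in mutant 2, against 5017 in control 1 and 582 in control 2. The 15 mesenchyme genes summed to 1788 and 2314 CPM in the mutants and to 834 and 79.4 CPM in the controls, and over 1% of UMIs came from them in 5 and 46 cells of the mutants and 1 and 0 cells of the controls. The part of free RNA in these differences was not tested.

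Globin transcripts moved with a few cells. Hbb-bs had 4003 and 3522 CPM in the mutants and 101 and 2601 CPM in the controls (log2 3.23 ± 0.95; edgeR adjusted p = 0.0221), and was below 0 once predicted doublets were left out (log2 -0.51). The 12 erythroid genes summed to 8911 and 6654 CPM in the mutants and to 219 and 5895 CPM in the controls, and took over 5% of the UMIs in 2 and 20 cells of the mutants and 0 and 1 cells of the controls. Doublets were predicted for 3 and 26 of the neutrophil-lineage cells of the mutants and for none of the controls. Of the 12 genes with the smallest p among those higher in the mutants, 1 (Ibsp) belongs to the rule and is not counted. Of the other 11, 10 were kept without predicted doublets, and the remaining gene, Tnc, was no longer tested.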

How the data were processed

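Droplet 3′ libraries of 2 mutant and 2 control samples were deposited as matrices of UMI counts per gene and barcode. The authors made these counts with Cell Ranger 5.0.1 (mutant 1, control 1) and 6.1.2 (mutant 2, control 2), per the submitters' processing notes; the file headers name other versions for control 1, control 2 and mutant 2. The deposited file of mutant 1 holds only barcodes called as cells, the others all barcodes. Total counts were 47390414 and 81890483 UMIs in mutants 1 and 2, and 116863081 and 114143361 in controls 1 and 2. Coordinates are those of mm10.

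Members, gene lists and tests were chosen with earlier results of these data known. UMIs were summed per library and tested with edgeR 4.0.16 in R 4.3.3 (quasi-likelihood test, TMM, filterByExpr, batch and genotype as terms, Benjamini-Hochberg adjustment at 0.05, 1 residual degree of freedom). DESeq2 1.42.0, other filters, cell choices and leaving out each library were alternatives. Tested on simulated counts of 4512 genes, the fit recovered 128 of 200 genes changed by 2 on the log2 scale and called 3 unchanged genes. The simulation gave every gene the same spread, had no batch effect and changed only genes with enough counts. Its rates need not hold for these data. Shares have exact Clopper-Pearson 95% intervals, and single values per library an exact two-sided permutation test. Cells were thinned to 1000 UMIs for shares of cells with a UMI, and unthinned shares are named as such. Doublets were predicted with Scrublet (scanpy 1.11.5, the top 0.8% of barcodes per 1000) and kept, their removal being an alternative. Named genes were those of the late share and the 12 higher and 12 lower genes of smallest p. From each list came the 4 of highest level and any called. Mettl3, Ptprc, Ly6g and the 8 most like Ngp and Retnlg were named as well. A few others were chosen after their values were seen. Replicate numbers follow accession order. The batch term, used as the replicate block, comes from the Cell Ranger versions in the processing notes and joins libraries of the same number; the labels name no shared animals or day. Fits that leave out a library have no batch term. Some genes that the rule or the lists name are not reported here.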

Additional observations from a re-analysis of the deposited data

Results flagged for a closer look

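Barcodes with at least 500 but fewer than 1000 UMIs, below the depth used for the cells, held further barcodes that followed the rest of the rule. There were 23 in mutant 1 and 178 in mutant 2, against 0 in control 1 and 0 in control 2, out of 403 and 959 barcodes of that depth in the mutants and 1360 and 533 in the controls. The barcodes of mutant 1 come from a file of called cells only, those of the other libraries from files of all barcodes. With barcodes of 500 or more UMIs and 250 or more genes, the neutrophil-lineage shares were 7.71% and 17.5% in mutants 1 and 2, against 0.320% and 0.763% in controls 1 and 2.

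In barcodes of 10 to 100 UMIs, which were used for free RNA and not as cells, S100a9 had 6291 CPM in mutant 2, against 175 in control 1 and 593 in control 2. S100a8 had 4914 CPM in mutant 2, against 135 and 479 CPM in controls 1 and 2. The file of mutant 1 holds no such barcodes.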

How the results depend on the processing

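Calls across genes numbered 241 in the reported fit. They were 61 with DESeq2, 151 with no filter on low counts, 19 with no replicate block (no batch term), 154 with S100a8 and S100a9 at 40000 CPM, 0 with 3 of 4 genes detected (481 at an unadjusted p under 0.05), 118 from 500 UMIs, 97 without predicted doublets and 9 without cells over 1% globin. Leaving out a library gave 37 (mutant 1) to 1528 (control 2). Those fits also had no batch term. Chosen after seeing the data, cells of late share 25 to 75% gave 69, those of at least 4000 UMIs 78, and both together 9. Hbb-bs turned to -0.51 (log2) without predicted doublets and -0.68 without globin-rich cells, against 3.23. The other 3 globin genes called also turned below 0 without doublets (Hba-a1 -0.67, Hba-a2 -0.16, Hbb-bt -0.31), and Hba-a1 without globin-rich cells (-0.76). Of the 46 genes followed, which include only Hbb-bs of the globins, no other changed sign where it was still tested. The share of cells (11.3 points), the late share (27.1) and the proliferation share (-27.9) kept their direction in every alternative, and the within-batch means, which take batch as the replicate block, equal them. Leave-one-out differences ran from 6.42 to 16.1, from 21.2 to 33.0 and from -45.1 to -10.7 points. The controls' 23 and 31 cells, and 1 residual degree of freedom, limit every comparison. The cause of the changes in call number was not tested.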

Other observations

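Msmo1 and Hmgcs1, genes of cholesterol synthesis chosen after their values were seen, were higher in the neutrophil-lineage cells of the mutants. Msmo1, a sterol methyl oxidase, had 153 and 191 CPM in the mutants and 6.43 and 27.3 CPM in the controls (log2 3.90; edgeR adjusted p = 7.22e-05). Hmgcs1, which makes HMG-CoA, had 68.5 and 173 CPM in the mutants and 17.2 and 9.93 CPM in the controls (log2 3.39; edgeR adjusted p = 0.000675). In barcodes with at least 5 Ibsp UMIs, Msmo1 had 9.03 and 14.8 CPM in the mutants and 15.8 and 39.9 CPM in the controls, the other order.

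Cd3d, a T-cell receptor subunit, had 258 and 18.6 CPM in the neutrophil-lineage cells of the mutants and 34.3 and 22.3 CPM in the controls. Cd3e and Trbc2 were at 0 in all 4 libraries, while Cd3g had UMIs in both mutants and none in either control.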
